A study of Mus musculus with 19 samples.

Results

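The data described here are 6 RNA sequencing libraries from the CA1 region of wild-type mice, all of the libraries titled WT control 1 to WT control 6, of 19 in the series. Their titles set which libraries belong, and no measured value was used for that. The mice were 7 months old wild-type littermates of APPPS1-21 animals, and their own genomes carry neither of the human transgenes of that line. According to the study, they had received control oligonucleotides of scrambled sequence, packed in lipid nanoparticles, by injection into the dorsal hippocampus, so the baseline is that of an injected hippocampus and not of an untouched one. The titles also name the anti-miR mixture beside the word control, and the account of the study was followed. CA1 is taken here as the dissected tissue. For this experiment the study names dorsal hippocampal tissue, and it describes the dissection of CA1 for mice of other ages. Polyadenylated RNA was sequenced as single reads of 50 nt, with 1 mouse per library. The levels, the make-up by cell type and the spread between these 6 animals were described, and no comparison was made with the groups of the transgenic mice.

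CA1 is the output field of the hippocampus proper. Its pyramidal cells are glutamatergic, receive the Schaffer collaterals of CA3 and project to the subiculum, and they are needed for spatial memory. A dissected CA1 also holds GABAergic interneurons, astrocytes, oligodendrocytes and their precursors, microglia and vessels, and it borders on the dentate gyrus, the subiculum, the choroid plexus of the lateral ventricle and white matter. In bulk RNA, fewer cells of a type and less RNA per cell cannot be told apart.

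Total counts lay between 19362343 and 35058913 per library. A count of 0 allows up to 3 counts, that is 0.0856 to 0.155 CPM (counts scaled to a common library total), and this limit covers counting error only. In all, 19402 of the 48709 genes listed reached 5 counts in at least 50% of the libraries and are called detected, among them 15503 protein-coding genes, 774 long intergenic RNAs and 881 antisense genes. The 15 pairs of libraries had a Pearson r across genes of 0.992 to 0.997 on the log2(CPM + 1) scale, and each pair differed by more than sampling noise, with a chi-square of 4.6 to 27.4 per gene. All 6 libraries were therefore kept as separate samples. The Y-linked genes Ddx3y, Eif2s3y, Kdm5d and Uty had 13 to 77.4 CPM in every library, whereas Xist, the transcript of the inactive X, stayed between 0.2 and 0.444 CPM, the pattern of male tissue.

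Several libraries stood apart from the rest in ways their shared label does not give. WT control 1 had high levels of interferon-stimulated and reactive glia genes, WT control 4 and 5 of dentate granule cell genes, and WT control 5 of choroid plexus genes, while WT control 4 was low in genes of the subiculum and neocortex. WT control 1 to 3 also differed from WT control 4 to 6 in a shift that followed the GC content of the genes in all of these libraries but WT control 4. The values are given with each result they touch.

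Expression was concentrated in few genes. The 10 highest genes took 4.68 to 5.66% of the counts of a library, and 1087 genes together took 50% of them. Levels of different genes were compared as TPM, in which counts are divided by the summed length of the annotated exons and then scaled to a common total. The median TPM of the detected genes was 12.6, 1900 genes reached 100 TPM and 73 genes reached 1000 TPM.

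**Figure D1:**
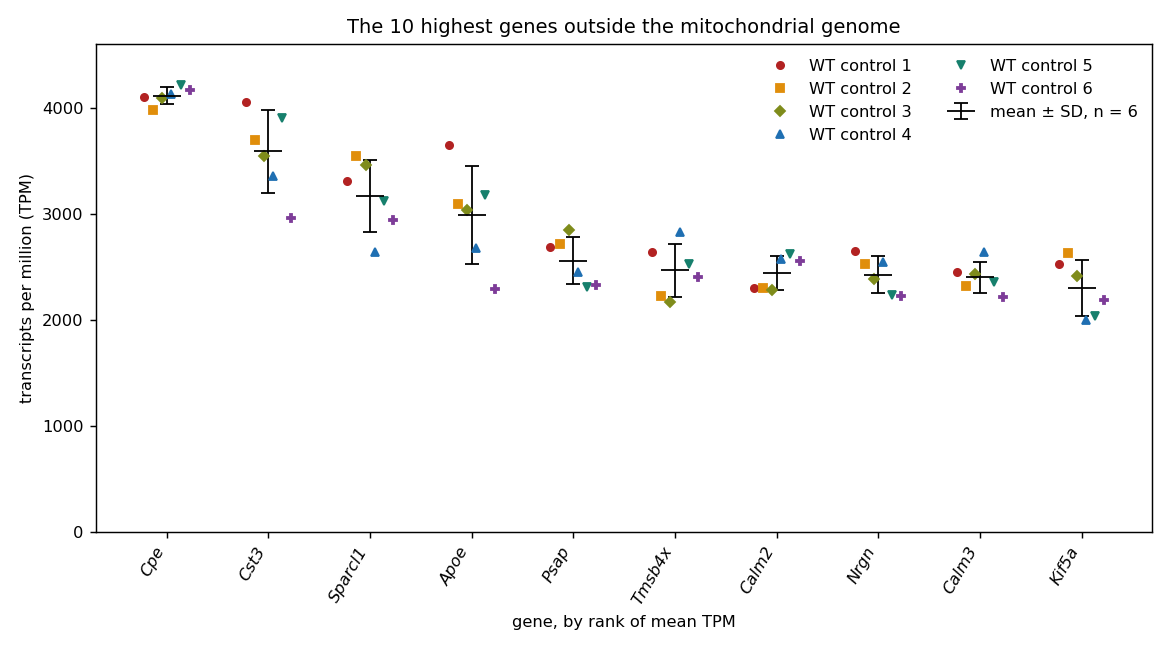
Level of the 10 highest genes outside the mitochondrial genome in each of the 6 libraries, in TPM (vertical axis from 0), with the mean and SD in black. Cpe and Cst3 are the highest 2 in every library, while the ranges of all neighbouring genes overlap.

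Outside the mitochondrial genome, the highest gene was Cpe, which encodes carboxypeptidase E, the enzyme that trims neuropeptide precursors. It had 3973 TPM in the lowest library, a median of 4115 and 4211 in the highest, and it ranked 1 in 6 of 6 libraries. Cst3, the secreted protease inhibitor cystatin C, came next with a lowest value of 2961 TPM, a median of 3618 and a highest value of 4055. It ranked 2 in every library. The astrocyte-enriched genes Sparcl1, a secreted matrix protein that acts on synapses, and Apoe, the main lipid carrier of the brain, followed with 3167 ± 339 and 2983 ± 463 TPM (mean ± SD, n = 6). Psap, the precursor of the lysosomal saposins, had 2554 ± 222 TPM (n = 6). Products of the secretory pathway and of lysosomes thus held the 5 highest places in the mean.

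Below them stood genes of calcium signalling, transport and the cytoskeleton. The actin-binding peptide gene Tmsb4x had a mean of 2464 TPM. Calm2 and Calm3, which encode the calcium sensor calmodulin, had 2437 ± 161 and 2400 ± 145 TPM (n = 6), and Nrgn, a postsynaptic protein that binds calmodulin, had 2423 ± 175 TPM. Atp1b1, a beta subunit of the sodium pump, had 2145 TPM on average. Among the 20 highest genes were also the motor protein gene Kif5a, Ncdn, Selenow, the chaperone gene Hsp90ab1, Camk2a, the prion protein gene Prnp, the imprinted noncoding RNA Meg3 and Aplp1, a relative of the amyloid precursor gene.

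The order within these 20 genes varied between libraries. By a two-sided exact sign-flip permutation test of the log2 TPM ratio within libraries (n = 6), 0 of the 19 pairs of neighbours differed after adjustment over the 19 pairs. Cpe lay above Cst3 by a mean log2 ratio of 0.20 and Cst3 above Sparcl1 by 0.18, each in 6 of 6 libraries, with an exact p of 0.0313 and an adjusted p of 0.297. As this p is the smallest that 6 libraries allow, most of the 19 pairs would have had to reach it for any to pass, and the count of 0 does not show that the levels were alike. At an unadjusted p under 0.05, these 2 pairs were the only ones of the 19. In all, 15 genes were among the 20 highest of all 6 libraries and 27 genes among those of any, and for the 100 highest genes these numbers were 78 and 125. The ranks of Kif5a ran from 6 to 18 and those of Camk2a from 10 to 24.

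The mitochondrial genome was read only in part by the deposited counts. Of its 13 protein genes, 5 were listed at 0 in all 6 libraries, namely mt-Co2, mt-Atp8, mt-Atp6, mt-Co3 and mt-Nd4l, and mt-Nd3 had at most 0.620 CPM, although every one of them serves respiration in all cells. The first 4 of these lie next to each other between positions 7013 and 9390 of the mitochondrial chromosome. The means of the other 7 were above that of any nuclear gene, up to 25520 ± 2320 TPM for mt-Cytb and 25440 ± 2779 for mt-Co1 (n = 6). A like caution applies to nuclear genes with near-identical copies elsewhere in the genome, whose reads a counter may not assign. Actg1, cytoplasmic gamma-actin, had only 2.75 ± 0.307 TPM beside 1354 ± 86.1 TPM for Actb, and the glycolytic gene Gapdh had 66.8 ± 6.87 TPM (n = 6). The 82 ribosomal protein genes together made up 0.795 ± 0.0648% of all TPM. These levels are uncertain, whereas the spread of such a gene between libraries is still a comparison of the same reads.

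Within families of genes, the order was mostly the same in every animal. Of 40 pairs of neighbours in 10 families, which were picked after levels had been seen and get no test, 32 had the same order in 6 of 6 libraries. Among the AMPA receptor subunits, which carry fast glutamate transmission, Gria1 had 781 ± 127 TPM, Gria2 277 ± 47.5, Gria3 141 ± 13.3 and Gria4 60.6 ± 7.04 (n = 6). Gria1 exceeded Gria2 by 2.82 times on average over the libraries. The obligatory NMDA receptor subunit Grin1 had 193 ± 16.7 TPM and exceeded Grin2b by 1.40 times and Grin2b exceeded Grin2a by 1.96 times, while Grin2a and Grin2c lay within their spread of each other, with Grin2a higher in 4 of 6 libraries. Camk2a, the kinase that strengthens synapses, was 4.15 times as high as Camk2b, and Camk2g was 12.7 times as high as Camk2d.

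The families also covered the subject of the wider study. App, the amyloid precursor gene, had 560 ± 12.4 TPM (n = 6). Its biological coefficient of variation was 2.04%, beside a median of 9.12% over all detected genes. App lay between Aplp1, which was 3.29 times as high, and Aplp2, which it exceeded by 1.49 times. The secretase genes were lower. Bace1 had 94.3 ± 5.92 TPM, Adam10 84.8 ± 9.49 and Ncstn 79.0 ± 5.96, and these 3 were not in the same order in all libraries. Psen2 had 18.8 ± 2.29 TPM. Of the genes that make and use microRNAs, Drosha, the nuclear processing enzyme, was highest at 104 ± 8.41 TPM, and Ago1 at 67.6 ± 3.13 was above Ago2 at 41.4 ± 2.47 and Ago3 at 23.9 ± 1.47. Dicer1 had 22.9 ± 0.456 TPM. Dnmt1, Dnmt3a and Dnmt3b, the DNA methyltransferases, had 39.6, 29.6 and 1.00 TPM on average. Exon unions differ in length from the transcripts in use, for example 24842 bases for Grin2b. With the longest transcript as the length instead, 7 of the 10 families kept their order, and Dnmt3a moved above Dnmt1.

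The cell type make-up was read from 18 lists of marker genes, and the lists are ordered here by the median TPM of their members. General neuronal markers were highest at 663, followed by excitatory neuron markers at 461 and markers of myelinating oligodendrocytes at 392. Astrocyte markers had a median of 101 TPM, inhibitory neuron markers 67.2, microglia 62.8, interneuron class markers 51.2 and oligodendrocyte precursors 22.2. Markers of endothelial cells and pericytes were close to the median of all detected genes, at 13.7 and 11.6 TPM. The order depends on this choice, since by the summed TPM of the members microglia, at 1326, lay above inhibitory neurons, at 792. All members of these lists were detected and had a mean of at least 1 CPM. Markers of red blood cells had a median of 15.1 TPM, and those of neuroblasts and dividing cells 1.73 TPM.

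Among the neuronal genes, the vesicle protein gene Snap25 had 1284 ± 112 TPM and the vesicular glutamate transporter gene Slc17a7 861 ± 88.2 (n = 6). Gad1 and Gad2, the enzymes that make GABA, had 212 ± 19.5 and 134 ± 9.98 TPM. Of the interneuron peptides, Sst was highest with 1513 ± 231 TPM, followed in 6 of 6 libraries by Cck, Npy, Pvalb, Vip and Tac1, of which Vip had 33.0 ± 5.05. Cck is also made by pyramidal cells, so it is not a measure of interneurons alone. The glutamate transporter gene Slc1a2 was the second highest astrocyte marker at 1141 ± 88.6 TPM, below the glutamine synthetase gene Glul at 1431 ± 128.

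Markers of cell types that a clean CA1 sample holds few of were low but not absent. The medians were 4.23 TPM for smooth muscle, 3.81 for ependymal cells, 3.21 for fibroblasts and meninges, 2.66 for the choroid plexus, 1.25 for border macrophages and 0.949 for lymphocytes and neutrophils. Of the 9 markers of the last list, 6 were detected. Of the 11 choroid plexus markers, 8 were detected, and Folr1, Kcnj13 and Otx2 had no count in at least 1 library. Most of the summed choroid plexus level came from Enpp2, at 162 to 265 CPM, which oligodendrocytes also express.

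Of the region lists, that of CA1 had the highest median level. Mpped1, Wfs1, Fibcd1, Spink8 and Pou3f1, all enriched in CA1 pyramidal cells, had means of 408, 222, 194, 109 and 98.8 TPM, the remaining member had 20.3 TPM, and the median of the CA1 list was 152 TPM. It was 31.4 for markers of CA2, 19.2 for CA3, 7.89 for dentate granule cells, 12 for the striatum and 1.76 for the thalamus. The CA3 gene Iyd had 0.464 ± 0.324 TPM. Markers of the subiculum and neocortex had medians of 46.9 and 41.3 TPM, above those of CA2 and CA3. The vesicular transporter gene Slc17a6, typical of the subiculum, was at 48.6 ± 14.7 TPM and the cortical gene Fezf2 at 118 ± 15.6 TPM (n = 6), above the mean of the CA1 markers Spink8 and Pou3f1.

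Across animals, the lists differed in how much their members varied. The spread was measured as the biological coefficient of variation, the SD between libraries as a percentage of the mean after removal of the share that counting alone gives. It contains differences between animals as well as in dissection, RNA and library preparation. Its median over all detected genes was 9.12%, and 2667 of 19402 genes, 13.7%, were above 25%. The medians were 6.56% for general neuronal markers, 8.90% for synaptic vesicle genes and 8.2% for inhibitory neuron markers, with 0 members above 25% in each. Markers of excitatory neurons had a median of 17.0% and those of astrocytes of 12%, while reactive glia and interferon-stimulated genes had medians of 55.8 and 58.4%, with 13 of 14 and 9 of 10 members above 25%.

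**Figure D2:**
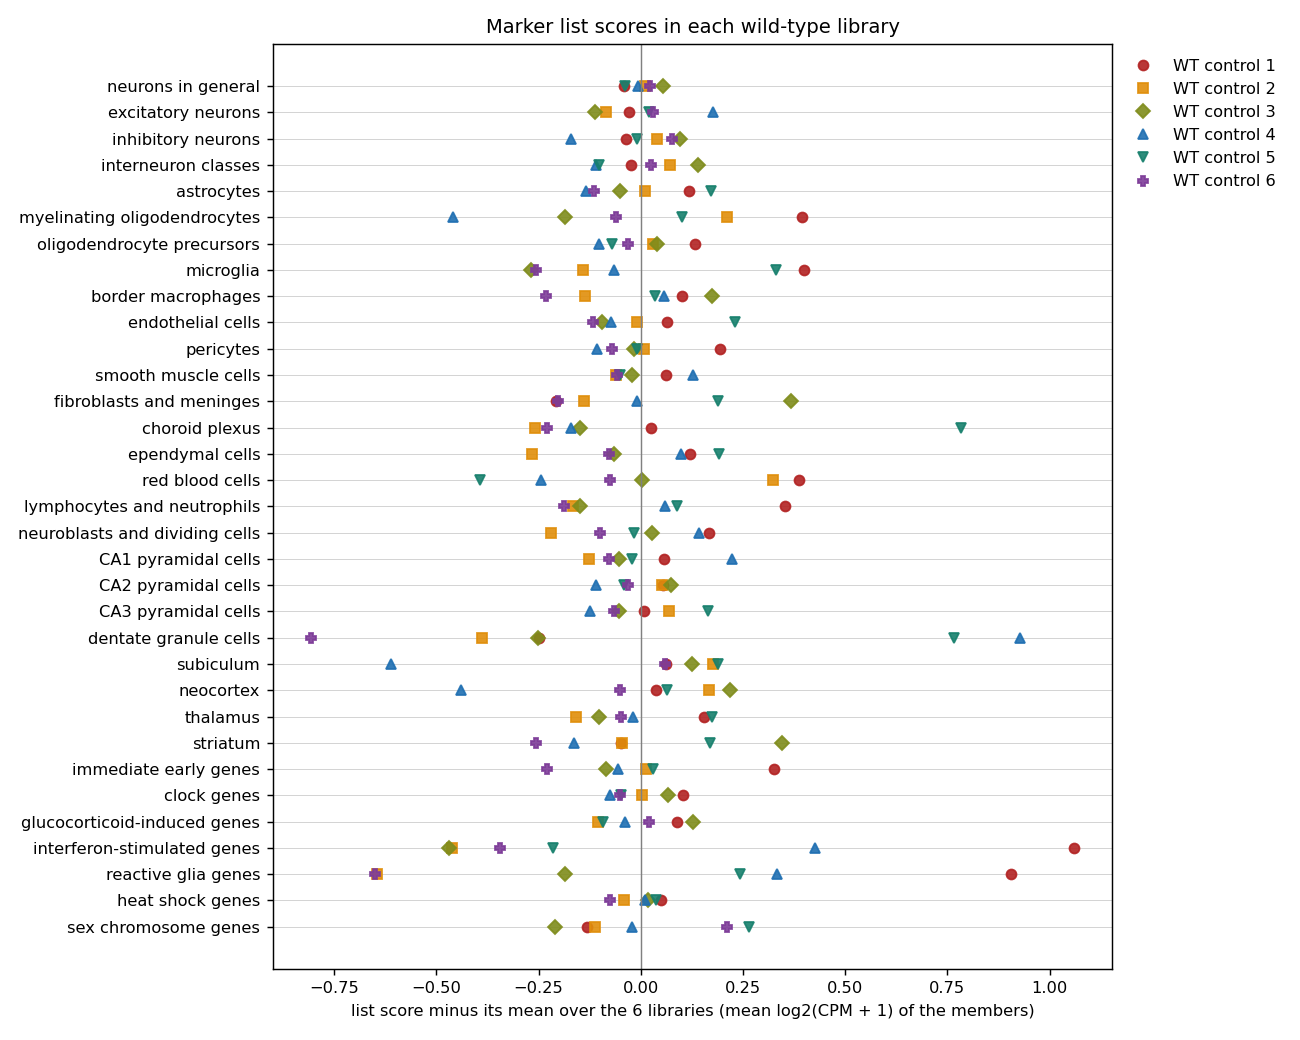
Score of each marker list in each library (horizontal axis, mean log2(CPM + 1) of the detected members, minus the mean over the 6 libraries). General neuronal markers lie close to 0, WT control 1 lies far to the right for interferon-stimulated and reactive glia genes, and WT control 4 and 5 for dentate granule cells.

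All 10 markers of myelinating oligodendrocytes were highest in WT control 1, in which 24.0% of all genes with a mean of at least 1 CPM were highest. Their summed level was 10402 CPM there, 5874 CPM in WT control 4 and 7971 CPM at the median. Mbp, the myelin basic protein gene, had 2478 CPM in the lowest library, a median of 3229 and 4509 CPM in the highest. The median spread of the list was 21.4%, and 0 of its 10 members were above 25%. Markers of the precursors had a median spread of 8.63%, with 1 of 7 above 25%. Of all genes with a mean of at least 1 CPM, 7.42% were above 25%. The spreads of these lists were not tested against each other.

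Microglia genes were highest in WT control 1 and 5, and so were 8 of the 11 astrocyte markers. Of all genes with a mean of at least 1 CPM, 24.0% were highest in the former and 15.8% in the latter. In the adjusted table described further on, WT control 5 had the highest microglia score. The summed level of the 12 microglia markers had a lowest value of 552 CPM, a median of 620 and a highest value of 905. All 12 markers were highest in WT control 1 or 5. The median spread of the list was 24.0%, and 6 of its 12 members were above 25%, beside 7.42% of all genes with a mean of at least 1 CPM. The complement genes C1qa, C1qb and C1qc had spreads of 34.0, 34.5 and 32.4%, against 18.5% for the homeostatic receptor gene Cx3cr1. Gfap, the intermediate filament of astrocytes that rises with injury, had 465 to 892 CPM and a spread of 29.7%, whereas the astrocyte genes Slc1a3 and Aldoc had spreads of 7.40 and 6.15%.

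Among the genes of physiological state, the 13 clock genes had a median spread of 11.1% with 0 members above 25%, and the 7 heat shock genes of 6.83% with 1 above. Of the 13 immediate early genes, which neurons switch on with activity, 3 were above 25% and 11 were highest in WT control 1. Of the genes with a mean of at least 1 CPM, 7.42% were above 25% and 24.0% were highest in that library. Arc had 290 CPM there against 127 to 200 CPM in the others and Fos 28.9 CPM against 14.4 to 22.6. In the adjusted table, the range of the immediate early score over the libraries was 0.32 in place of 0.56 on the log2(CPM + 1) scale, with WT control 1 at 5.18 and WT control 5 at 5.15. Fkbp5, a target of the glucocorticoid receptor, had a spread of 9.73%, and Sgk1 of 25% with its highest value, 98.1 CPM, in WT control 6.

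The spread of single genes depended on their level. Genes with a mean under 0.5 CPM had a median of 16.3% and 37.8% of them were above 25%, while among the 977 genes with at least 200 CPM the median was 7.80% and 1.13% were above 25%. Among the 15007 genes with a mean of at least 1 CPM, 7.42% were above 25%.

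**Figure D3:**
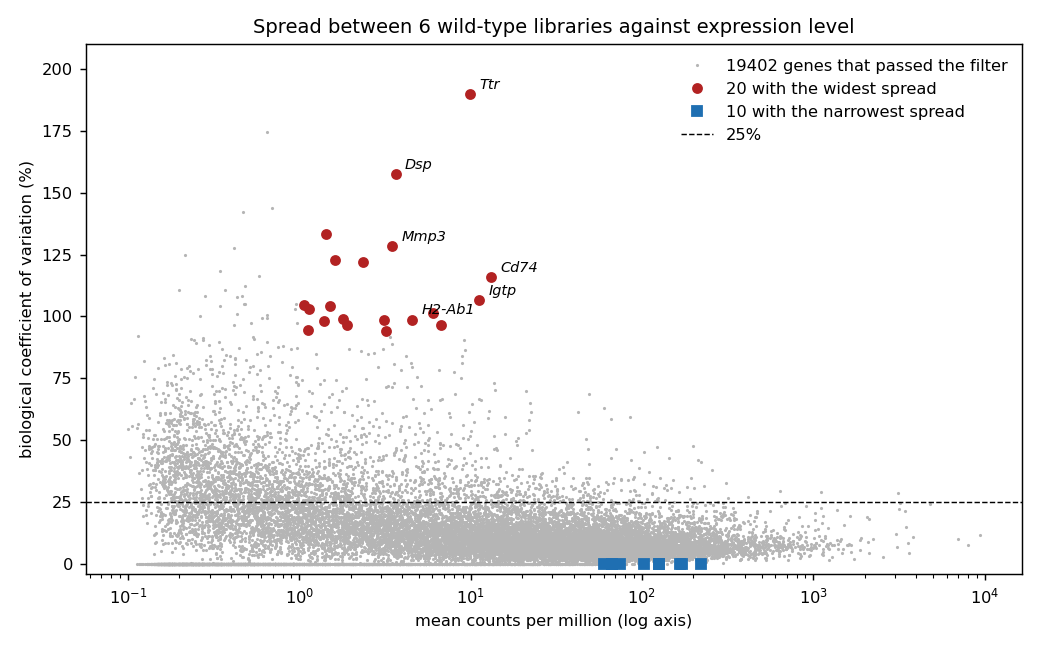
Biological coefficient of variation in percent against mean CPM (log axis) for 19402 genes, with the 20 widest (mean of at least 1 CPM) in red, the 10 narrowest (mean of at least 50 CPM) in blue and 25% as a dashed line. Ttr at 190% and Dsp at 157% stand above all other genes with a mean of at least 1 CPM.

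At this scaling, the steadiest genes varied no more than counting allows. However, 6 of the 10 named here had spreads of 1.58 to 2.77% with TMM or DESeq2 factors. Ckap5 and Atp5c1 had spreads of 0.646 and 0.857% with DESeq2 factors. Of the 4657 genes with a mean of at least 50 CPM, 50 had an estimate of 0%, and they were ordered by their plain coefficient of variation. Dnajc18, a cochaperone gene, was the steadiest, with 125 CPM in the lowest library, a median of 126 and 128 CPM in the highest, a plain coefficient of variation of 0.900%. Ckap5, which promotes microtubule growth, had 1.02%, and Snx27, a sorting nexin that returns receptors to the membrane, had 1.03%. The others of the 10 were Pgrmc2, Atp5c1 of the ATP synthase, the kinase gene Mark3, Angel2, Atf7ip, Ubp1 and Brms1l, with 1.32 to 1.56%. Genes commonly used as references in quantitative PCR spanned a wide range. Sdha had a spread of 3.51% and Polr2a of 4.08%, and Gapdh had 9.06%. The only 1 of the 16 above 25% was B2m, part of the class I antigen presentation complex, beside 7.42% of all genes with a mean of at least 1 CPM. B2m had a spread of 42.7%, with 260 CPM in WT control 1 and 92.9 to 162 CPM in the others.

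The 20 genes with the widest spread, which were chosen for it, fell into a few kinds. The widest of all was Ttr, which encodes transthyretin, the main secreted product of the choroid plexus, with a spread of 190%. It had 48.4 CPM in WT control 5 and 1.08 to 4.31 CPM in the others. Dsp, which encodes desmoplakin of cell junctions and marks dentate granule cells in the hippocampus (chr13:38151294-38198577, mm10), reached 14.5 CPM in WT control 4, followed by 6.05 CPM in WT control 5. The other 4 libraries had 0.150 to 0.654 CPM. Cd74, H2-Ab1 and H2-Aa, which present antigen on class II molecules, Igtp, Iigp1 and Gm4951, GTPases of the interferon response or their relatives, Gimap3, Cd8a of cytotoxic T cells and the chemokine gene Cxcl13 were all highest in WT control 1. Igkc, the constant chain of antibodies, and Pappa2 were highest in WT control 3, and Mmp3 and Slfn4 in WT control 4. Cst7, Acod1, Igfn1, Gm35021 and the annotated ribosomal RNA gene Gm24601 completed the list.

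**Figure D4:**
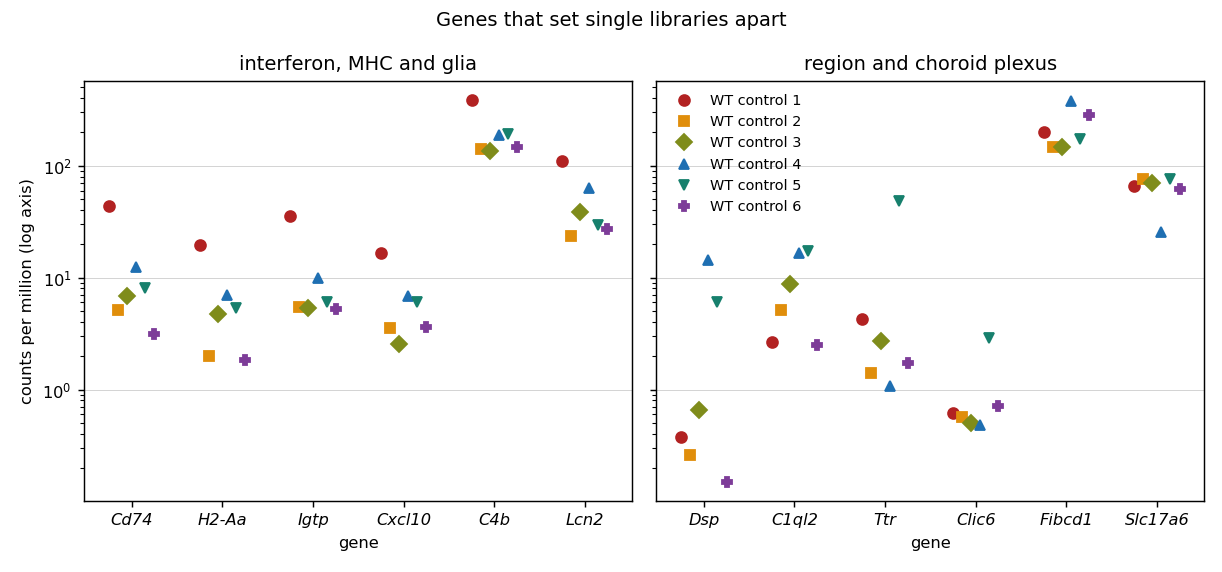
CPM (log axis) of 12 genes in the 6 libraries, with interferon, antigen presentation and glial genes on the left and region and choroid plexus genes on the right. WT control 1 is the highest for each of the 6 genes on the left, while Dsp and C1ql2 are highest in WT control 4 and 5 and Ttr and Clic6 in WT control 5.

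WT control 1 had the most genes above the others, and WT control 4 the most below them. Of the 15007 genes with a mean of at least 1 CPM, 198 were at least 2 times the median of the other 5 libraries in WT control 1, 1.32%. The shares were 0.08% in WT control 2, 0.347% in WT control 3, 0.406% in WT control 4, 0.4% in WT control 5 and 0.227% in WT control 6. At most 0.5 times that median were 28 genes in WT control 1, 78 in WT control 2, 37 in WT control 3, 138 in WT control 4, 17 in WT control 5 and 81 in WT control 6. In WT control 1, 9 of the 10 interferon-stimulated genes and 9 of 12 reactive glia genes were at least 2 times that median. All 10 interferon-stimulated genes were highest in this library, and the median spread of this list was 58.4%, with 9 of 10 members above 25%. Of all genes with a mean of at least 1 CPM, 24.0% were highest in WT control 1 and 7.42% had a spread above 25%. The transcription factor gene Irf7 had 24.8 CPM in WT control 1 and 6.23 to 17.1 in the others. Oasl2, an antiviral sensor relative, had 46.7 CPM against 13.3 to 32.2 CPM.

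Of the 14 reactive glia genes, 10 were highest in WT control 1, beside 24.0% of all genes with a mean of at least 1 CPM. C4b, a complement gene of reactive astrocytes and oligodendrocytes, had 385 CPM in WT control 1 and 135 to 192 CPM in the others. Lcn2, the secreted lipocalin of reactive astrocytes, had 111 CPM against 23.7 to 62.9, and Cd74, named above for its wide spread, 44.0 against 3.15 to 12.4 CPM. WT control 4 had the second highest value of Irf7, Oasl2, Lcn2 and Cd74, and 3 interferon-stimulated genes were at least 2 times the median of the other 5 there. Of the lymphocyte and neutrophil markers, Cd3e had 1.2 CPM in WT control 1 and 0.0770 to 0.428 in the others and Cd8a 3.28 against 0.496 to 1.11 CPM, while Cd79a of B cells was at or below 0.258 CPM in all libraries. The summed level of this list was 6.19 CPM in WT control 1 and 1.46 to 3.16 CPM in the others, and that of the microglia markers 905 against 552 to 838 CPM. The part of these cells in the levels of interferon-stimulated genes was not tested.

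Promoters of the genes with the widest spread, and of those that lead the second principal component described further on, were searched for 2 short motifs known from interferon signalling. The RefSeq table (build GRCm38.p6) gave the 250 bases before the start site. The letters GAAANNGAAA, the core of the element bound by interferon regulatory factors, were found on either strand in 2.98% of all 32851 promoters of the table, and TTCNNNGAA, the core of the gamma-activated element, in 7.02%. The 2 motifs were searched for separately, and their matches do not overlap in the sequences below. Of the 20 genes with the widest spread, 12 had a promoter in the table, and 1 of these, Igtp, held each motif. Ttr, Igkc, Gm24601, Cd74, Gm4951, Iigp1, Gm35021 and H2-Ab1 had none and could not be searched. Counted by gene, 3.46% of all genes in the table held the first motif and 8.13% the second. Of the 10 genes with the highest positive loading on the second principal component, 8 had a promoter. Cd74 and Iigp1 had none, and Cxcl10, Igtp and Spp1 held the first motif. The promoters of Igtp and of Cxcl10, an interferon-induced chemokine, are printed to show where the letters lie, 5′ to 3′ on the strand of the gene, with the matches in capitals.
Igtp, chr11:58199306-58199555, plus strand: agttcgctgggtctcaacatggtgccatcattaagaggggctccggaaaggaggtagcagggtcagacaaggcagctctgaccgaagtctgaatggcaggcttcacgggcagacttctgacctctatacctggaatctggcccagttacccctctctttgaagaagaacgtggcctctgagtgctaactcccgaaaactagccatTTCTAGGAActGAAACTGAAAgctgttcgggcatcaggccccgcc
Cxcl10, chr5:92348890-92349139, minus strand: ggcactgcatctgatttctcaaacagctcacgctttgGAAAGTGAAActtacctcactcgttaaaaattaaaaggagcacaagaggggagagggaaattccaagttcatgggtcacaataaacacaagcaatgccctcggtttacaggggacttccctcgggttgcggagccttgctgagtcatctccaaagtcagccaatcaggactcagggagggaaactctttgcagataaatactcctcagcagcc
In Igtp, the letters of the gamma-activated element are followed at a distance of 2 bases by those of the regulatory factor element, and in Cxcl10 the match lies in the distal part of the window. Igtp had 35.5 CPM in WT control 1 and 5.26 to 9.93 in the others, and Cxcl10 16.5 against 2.58 to 6.90 CPM. A match of letters is a description of the sequence and does not show that a factor was bound. Exons of Igtp overlap those of Irgm2 in the annotation, and reads of these 2 genes may not be told apart.

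Markers of the neighbouring fields differed between libraries. The summed level of the 6 dentate granule cell markers had a lowest value of 34.5 CPM, a median of 52.9 and a highest value of 96.5, and all 6 were highest in WT control 4 or 5. Of all genes with a mean of at least 1 CPM, 12.5% were highest in the former and 15.8% in the latter. C1ql2, a synaptic organizer of mossy fibre synapses, had 16.6 and 17.2 CPM there and 2.52 to 8.77 in the others. Prox1, the factor that specifies granule cells, had 37.5 and 41.0 CPM against 21.6 to 28.6. Dsp was below 1 CPM in every other library, as given above. The part of dentate tissue in the other differences of these libraries was not tested.

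WT control 4 differed from the rest in a further way. Fibcd1 of CA1 had 375 CPM there and 146 to 281 CPM in the others, and Camk2a 4433 against 2975 to 3613 CPM. Slc17a6 had 25.6 CPM against 62.5 to 76.8, the cortical gene Cux2 27.2 against 42.7 to 72.8 CPM and Mbp 2478 against 3041 to 4509 CPM. Of the 16 postsynaptic density genes, 12 were highest in this library, in which 12.5% of the genes with a mean of at least 1 CPM were highest. Of the 6 CA1 markers, 3 were highest in this library.

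In WT control 5, 5 of the 8 detected choroid plexus genes had their highest value, namely Ttr, Clic6, Prlr, Kl and Slc4a5, against 15.8% of all genes with a mean of at least 1 CPM. Kl had 27.7 CPM there and 25.8 in the next library, so the difference was large for only some of them. Of the genes below the filter, Folr1 had 0.807 CPM and Otx2 0.496 CPM there and at most 0.155 and 0.0751 CPM in the others. Sostdc1 had 1.49 CPM there and 0.742 to 1.81 in the others, and Aqp1 was highest in WT control 4 with 3.17 CPM.

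WT control 3 had the highest summed level of fibroblast and meninges markers, 174 CPM against 68.3 to 132 CPM in the others, and 4 of the 8 members were highest there, beside 20.4% of all genes with a mean of at least 1 CPM. Dcn, a proteoglycan of fibroblasts, had 119 CPM there, 102 in WT control 6 and 32.7 to 67.0 in the other 4. The transporter gene Slc22a6 had 4.50 against 0.998 to 2.70 CPM. Pappa2, a protease that releases insulin-like growth factors, had 5.62 CPM against 0.547 to 1.58. Igkc, with 5.23 CPM, was at most 1.37 in the others.

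In a principal component analysis of log2(CPM + 1) over 11848 genes with a mean of at least 5 CPM, the first component held 41.4% of the variance and separated WT control 1, 2 and 3, with scores of 10.6 to 12.3, from WT control 4, 5 and 6, with scores of -15.1 to -9.34. The mitochondrial share of the counts was 2.97 to 3.31% in the former and 3.76 to 4.58% in the latter. The loadings followed the GC content of the genes. Taken by library, the deviation from the mean over libraries had a Pearson r with GC content across genes of 0.36 to 0.43 in WT control 1 to 3, of 0.01 in WT control 4, and of -0.59 and -0.58 in WT control 5 and 6, so WT control 4 did not share the relation. The 500 genes with the lowest loadings had a median GC content of 40.1% in their longest transcript and the 500 with the highest loadings 55.3%, beside 49.7% over all genes, and across genes the loading and the GC content had a Pearson r of 0.62 (11831 genes, which are not independent). Zinc finger genes, as named by their symbols, made up 33 of the lowest 500 and 5 of the highest, out of 331 in all.

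**Figure D5:**
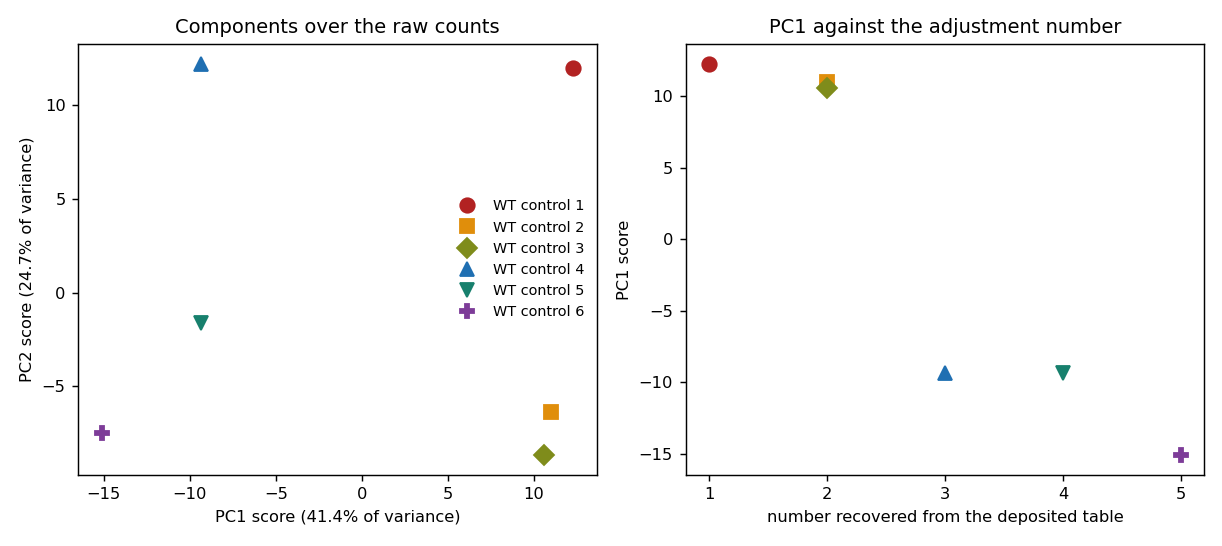
Left, the scores of the 6 libraries on the first and second principal component of the raw counts. Right, the score on the first component against the whole number per library recovered from the deposited adjusted table. WT control 1 to 3 have scores above 10 and numbers of 1 and 2, and WT control 4 to 6 have negative scores and numbers of 3 to 5.

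Single genes among the 10 lowest loadings show the size of this shift and where WT control 4 stood. Pter, a phosphotriesterase-like enzyme gene, had 40.5 to 46.6 CPM in WT control 1 to 3 and 71.6 to 108 in WT control 4 to 6. Sh3bgrl had 53.7 to 63.2 against 82.2 to 133 CPM, and the zinc finger gene Zfp942 9.97 to 11.7 against 17.3 to 26.1 CPM. The mitochondrial transfer RNA genes mt-Ta and mt-Tc had 2.12 to 3.77 and 4.6 to 6.80 CPM in WT control 1 to 3, 5.90 and 13.6 in WT control 4, and at least 18.6 and 24.6 CPM in WT control 5 and 6. Arxes2 had 10.9 to 13.9 CPM in WT control 1 to 3, 14.7 in WT control 4 and 29.6 to 31.1 in WT control 5 and 6, so that WT control 4 lay near the former. The authors' adjusted table differs from log2(CPM + 1) by a slope per gene times a whole number per library, which was 1, 2, 2, 3, 4 and 5 for WT control 1 to 6, and this profile took up 99.9997% of the difference. The sources used here do not say what the number stands for, so it is not called a batch. Of 5 measures set against the number after the pattern had been seen, the score on the first component passed adjustment over the 5 by Pearson r (exact p = 0.00556, adjusted p = 0.0278, n = 6). None of the 5 did by Spearman rho (adjusted p = 0.0833 for that score). The number was recovered from values of these same libraries, so these p-values are no independent evidence of a relation. Because the scores form separate groups of 3 libraries, no pooled r is given, and the number and the split into WT control 1 to 3 and 4 to 6 cannot be told apart. In the adjusted table, the first component held 42.0% and set WT control 4 apart, with a score of -18.6 and -5.25 to 10.6 for the others.

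The second component, with 24.7% of the variance, had scores of 12 and 12.2 for WT control 1 and 4 and of -8.70 to -1.64 for the others. Its 10 highest genes were Cd74, H2-Aa, Iigp1, Igtp, the complement gene C3, H2-Q4, Spp1, Irf7, Lcn2 and Cxcl10. Among those at the other end stood Dsc3, Myoc, Col23a1, Pcdh11x, Arhgap6, Tshz3, Dlk1, Vwc2l and Dcn. Dsc3, a desmosomal cadherin gene, had 0.685 CPM in WT control 4 and 4.24 to 11.4 CPM in the others, and Myoc, which encodes myocilin, 2.48 against 13 to 27.2 CPM. Loadings describe these libraries and were not tested.

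Of 12 pairs of list scores, 0 passed adjustment over the 12 pairs (two-sided exact permutation over all 720 pairings, n = 6), and 2 had an unadjusted p under 0.05 by Pearson r and 2 by Spearman rho. Reactive glia and interferon-stimulated genes came closest, with r = 0.88 (exact p = 0.0111, adjusted p = 0.133) and rho = 0.77 (exact p = 0.103, adjusted p = 0.308), and with r = 0.76 without the 2 libraries farthest from the median, 1 of which is WT control 1. For inhibitory and excitatory neurons, r was -0.82 (exact p = 0.0403, adjusted p = 0.242, n = 6) and rho was -0.60 (exact p = 0.242, adjusted p = 0.483), and r was 0.11 without the 2 libraries farthest from the median. That relation rests on those 2 libraries. By rho, choroid plexus and ependymal markers had 0.94 (exact p = 0.0167, adjusted p = 0.2, n = 6) with r = 0.70 (exact p = 0.119, adjusted p = 0.287) and r = 0.73 without the 2 farthest libraries. CA1 and dentate granule cell markers had a rho of 0.89 (exact p = 0.0333, adjusted p = 0.2, n = 6) with r = 0.70 (exact p = 0.113, adjusted p = 0.287), and 0.69 without the 2 farthest libraries.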

How the data were processed

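Per the labels and the study's methods, the authors aligned reads to mm10 with STAR (2.5.2b) and deposited raw read counts per Ensembl gene from featureCounts of Subread (1.5.1). The annotation release and the strand setting are not given in the sources used here, so overlapping genes may share reads. The authors also deposited log2 values with an adjustment. The study's methods describe regression on surrogate variables and on covariates such as sex for the microRNA signature. They do not say how the present table was adjusted. The table entered only as an alternative and for the principal components. Gene names, lengths and positions came from GENCODE M21 (48349 of 48709 identifiers matched). Python (3.11.15) computed CPM, TPM, the spread and exact permutation tests. The spread was checked on simulated counts, and the exact tests on short series with known answers. Other scale factors came from edgeR (4.0.16) and DESeq2 (1.42.0). Samples were grouped by title, and with 1 group no fold change was tested. Genes needed at least 5 counts in 50% of the 6 libraries, and log2 values have a pseudocount of 1. Named genes are the 20 highest by TPM, the mitochondrial protein genes, the 20 widest (mean of at least 1 CPM) and 10 narrowest spreads (mean of at least 50 CPM), list members, and 10 loadings at each end of the first 2 components. Genes leading in a single library and the families were added after values were seen. That these libraries and lists are described was decided with earlier results of these data known. The alternatives were another scaling, another filter, leaving out each library, another length and the deposited table. The p-values measure only the spread between these 6 samples. Some genes that these rules name are not reported here.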

Additional observations from a re-analysis of the deposited data

Results flagged for a closer look

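Dixon's ratio was computed for 205 values, the scores of 38 lists and the CPM of 167 genes. The genes were those named in the report, the 20 with the widest and the 10 with the narrowest spread, and the members of the 2 lists whose score was past the critical value. Genes outside this set were not examined. In all, 31 values had 1 library farther from the nearest other library than the 95% critical value for 6 samples allows. Among the lists these were 2 of 38, where chance gives about 1.9. Among the genes they were 29 of 167, where chance gives about 8.35, but many of these genes were chosen for a wide spread or named after their values were seen, so the excess is no independent evidence.

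WT control 1 was the high library for 15 genes. These were C4b with 385 CPM, Cd74 with 44.0, Igtp with 35.5, Irgm2 with 25.6, H2-Q4 with 23.1, H2-Aa with 19.4, Iigp1 with 18.1, Cxcl10 with 16.5, H2-Ab1 with 13.4, Gm24601 with 5.43, Gm4951 with 4.72, Gimap3 with 4.17, Cxcl13 with 3.49, Cd8a with 3.28 and Cd3e with 1.2 CPM. WT control 3 was high for Arhgap6 at 13.2 CPM, Pappa2 at 5.62 and Igkc at 5.23 CPM, and low for Pou3f1 at 72.6 CPM. WT control 4 was high for Prnp at 1217 CPM, Mmp3 at 12.1 and Slfn4 at 8.07 CPM. The same library was low for Gad1 at 323 CPM, for the subiculum score at 5.16 on the log2(CPM + 1) scale, and for its member Slc17a6 at 25.6 CPM. WT control 5 was high for the choroid plexus score, at 3.25 on that scale, and for the members Ttr at 48.4 CPM, Clic6 at 2.92, Folr1 at 0.807 and Otx2 at 0.496 CPM. WT control 6 was high for Tac1 at 13.6 CPM. In the adjusted table, the ratio of the subiculum score was 0.64 and that of the choroid plexus score 0.47, so the latter was no longer past the critical value. The interferon-stimulated and reactive glia scores were not past it, with ratios of 0.41 and 0.37.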

How the results depend on the processing

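No paired analysis was possible because a single group is described and no groups are compared. Leaving out each library in turn gave 18979 to 19269 detected genes, a share of 5.03 to 5.22% for the 10 highest genes, a median spread of 8.55 to 9.19% and 2369 to 2648 genes above 25%. With 5 libraries the exact test of neighbouring ranks cannot reach the threshold, so its 0 calls say nothing about stability. TMM and DESeq2 factors, mitochondrial genes left out of the total, the longest transcript and levels in CPM gave counts within 1.5 times of those reported. The values that moved were 30868 genes with any count and no filter, 3.76% for the 10 highest genes without mitochondrial genes, 12.9% for the median spread from edgeR's tagwise dispersion, and, for genes above 25%, 1114 with a mean of at least 1 CPM, 656 in the deposited table and 820 for unadjusted log2(CPM + 1) over the same 18825 genes, the last chosen after seeing the data. Single libraries set some of the widest spreads. Without WT control 1, Igtp fell from 106 to 30.1%, Cd74 from 116 to 48.1%, Iigp1 from 101 to 43.6%, Gm4951 from 104 to 32.8%, Cxcl13 from 103 to 43.7%, H2-Ab1 from 98.8 to 51.3%, H2-Aa from 96.7 to 52.0%, Gimap3 from 98.3 to 33.3% and Cd8a from 94.4 to 26.9%. Without WT control 3, Pappa2 fell from 96.6 to 27.2% and Igkc from 133 to 83.5%, without WT control 4 Slfn4 from 122 to 66.7%, and without WT control 5 Ttr from 190 to 56.6%. In the adjusted table, 34 of 38 lists had the same highest library and 30 the same lowest. The highest differed for microglia, subiculum, thalamus and heat shock genes. With TMM or DESeq2 factors, 6 of the 10 narrowest genes, among them Dnajc18, had spreads of 1.58 to 2.77% in place of 0. With DESeq2 factors, Ckap5 and Atp5c1 also left 0, at 0.646 and 0.857%. Leaving out mitochondrial genes raised 3 list levels by more than their SD, and the adjusted table moved the range of 3 list scores, of which that of immediate early genes went from 0.56 to 0.32. Orders did change. With the longest transcript, Dnmt3a lay above Dnmt1, Ncstn above Bace1 and Adam10, and Dicer1 and Dgcr8 above Ago3. In the adjusted table, the highest microglia score passed from WT control 1 to 5. There, the choroid plexus score of WT control 5 was no longer past the critical value. The first component of that table set WT control 4 apart. It is another axis than that of the raw counts. Whether the split between WT control 1 to 3 and 4 to 6 shrank was not tested.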
